A study of Mus musculus with 4 samples.

Results

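Arg1, Nos2, Arg2, Chil3, Mrc1, Tgfbi, Spp1 and Fn1 are genes commonly read as signs of how macrophages are activated, and their level and detection were followed in C1q-positive macrophages, monocytes and neutrophils of the mouse liver. These 8 genes, of the 31053 in the count tables, were chosen by symbol, and each was listed in all 4 libraries.

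Liver mononuclear cells of C57BL/6 mice aged 8 to 10 weeks were profiled one by one in droplets by RNA sequencing, and each condition had 1 library. Naïve mice were untreated, while the other 3 groups received concanavalin A (ConA), a plant lectin that activates T cells and causes hepatitis, and were sampled 24 h after it. ConA+Veh mice also received vehicle, ConA+TCDD mice the dioxin TCDD and ConA+FICZ mice the tryptophan derivative FICZ. TCDD and FICZ both bind the aryl hydrocarbon receptor (AhR), a transcription factor switched on by its ligands. In that order the libraries held 2086, 2779, 1880 and 2555 cells, with medians of 2161, 3984, 3762 and 3147 unique molecular identifiers (UMIs, each counting 1 captured RNA molecule) per cell. Values given as 4 numbers in a row keep the order Naïve, vehicle, TCDD and FICZ. How many mice stand behind each library is not given in the sources used here, so no difference between conditions could be tested. Intervals of levels and ratios cover the counting error of UMIs at 95% and leave out the spread between cells. Those of shares cover the sampling of cells at 95%, and no interval covers the spread between mice.

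Macrophages shift their arginine use with their activation. Inducible nitric oxide synthase, encoded by Nos2, turns arginine into nitric oxide in cells exposed to interferon-γ or microbial products, a state called classical or M1-type, while arginase 1, encoded by Arg1, turns the same substrate into ornithine and urea in cells exposed to interleukin-4 and in many inflamed tissues, a state called alternative or M2-type. Arg1 is also the urea cycle enzyme of hepatocytes, so in the liver its RNA is not particular to macrophages.

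Cells were assigned from marker genes, none of which is among the 8. A C1q-positive macrophage held at least 2 of C1qa, C1qb and C1qc, a monocyte at least 4 of 8 markers such as Ccr2, Ly6c2 and Lyz2, and a neutrophil at least 4 of 9 markers such as S100a8, Csf3r and Cxcr2. This gave 11, 162, 21 and 149 macrophages, 47, 28, 10 and 32 monocytes and 23, 95, 38 and 253 neutrophils, in all 869 of 9300 cells. Cells that fell in no gated class, myeloid or other, made up 16.35, 22.53, 39.95 and 19.65% of the libraries. The macrophages did not carry the profile of resident Kupffer cells. All 5 Kupffer markers (Clec4f, Vsig4, Timd4, Marco, Cd5l) were at 0 in Naïve, and summed they reached 59.6, 99.3 and 11 CPM (UMIs per 1000000 UMIs of the class) in the other 3 libraries. The monocyte markers Ly6c2 (767 to 1263 CPM), F13a1 (181 to 560 CPM) and Ccr2 (244 to 348 CPM) were present in the macrophages of every library. Monocytes of the 3 ConA libraries held C1qb at 86.3 to 204 CPM and those of Naïve held none, so the border between these classes was less sharp after ConA. Summed over the 8 monocyte markers, monocytes stood at 26210, 5875, 3225 and 8643 CPM and macrophages at 6176, 6518, 4241 and 6242 CPM. In ConA+Veh and ConA+TCDD the name monocyte thus rests on the gate and not on a higher marker level. Monocytes of ConA+TCDD also held the granulocyte progenitor markers Mpo, Elane, Prtn3 and Ctsg at 367 CPM summed, 2 of them at 0. B cells, which should lack the 8 genes, served as the background.

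Arg1 (chromosome 10, 24915221 to 24927484, minus strand of GRCm38) was abundant in macrophages, lower in monocytes and close to absent from neutrophils. Its level in macrophages was 2467 CPM in Naïve (262 UMIs), 1017 in ConA+Veh (1093 UMIs), 1236 in ConA+TCDD (137 UMIs) and 1835 in ConA+FICZ (1828 UMIs). Naïve was the highest and ConA+Veh the lowest, and the counting intervals of ConA+Veh (958 to 1080) and ConA+TCDD (1038 to 1461) overlapped. In monocytes the level was 245, 586, 248 and 1606 CPM, so there the intervals of Naïve and ConA+TCDD overlapped (174 to 335 and 157 to 372) and ConA+FICZ was the highest. Neutrophils held 2 Arg1 UMIs in Naïve, 0 in ConA+Veh, 0 in ConA+TCDD and 16 in ConA+FICZ. The floor of 3 counts corresponds to 12.5 CPM in the 95 ConA+Veh neutrophils, far under the macrophages of the same library.

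The Arg1 signal was spread unevenly over cells. One Naïve macrophage gave 123 of the 262 UMIs, and without it the Naïve level was 1541 CPM. With the highest cell left out of both libraries, the log2 ratio of ConA+Veh over Naïve in macrophages moved from -1.28 (-1.47 to -1.08) to -0.69, and as a mean over cells it was -0.25. One cell gave 54 of 137 UMIs in ConA+TCDD, and without the highest cells the log2 ratio of ConA+TCDD over ConA+Veh turned from 0.28 (0.01 to 0.54) to -0.28. As a mean over cells that ratio was 0.70. The median macrophage held 1.56, 0.251, 8.76 and 9.37 Arg1 UMIs per 10000 of its UMIs. The ratio of ConA+FICZ over ConA+Veh was 0.85 (0.74 to 0.96) with all cells, 0.85 without the highest ones and 0.62 as a mean over cells.

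Detection was compared at equal depth by thinning each cell to 1000 UMIs and leaving out shallower cells, which were 1, 11, 2 and 14 macrophages, 0, 2, 0 and 0 monocytes and 4, 12, 9 and 31 neutrophils. Arg1 was found in 40.0% of macrophages in Naïve (4 of 10 cells), 39.7% in ConA+Veh, 52.6% in ConA+TCDD and 58.5% in ConA+FICZ. Without thinning the shares were 54.5, 50, 61.9 and 66.4%. The exact binomial intervals of the thinned shares in ConA+Veh (31.9 to 48.0%) and ConA+FICZ (49.7 to 66.9%) did not overlap, whereas those of Naïve and ConA+TCDD contained the other values. In monocytes Arg1 was found in 4.26% of Naïve cells, 34.6% in ConA+Veh, 20% in ConA+TCDD and 37.5% in ConA+FICZ. In B cells the thinned share stayed between 0 and 1.27%, with median depths of 2146 to 4435 UMIs per cell against 2644 to 8178 in the macrophages.

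Hepatocytes were a second source of Arg1 RNA. The cells gated as hepatocytes, 18, 8, 1 and 192 in number, held Arg1 at 2230, 691, 3170 and 2059 CPM. They supplied 17.5, 0.86, 0.627 and 17.9% of all Arg1 UMIs of their libraries. Albumin (Alb) RNA, made by hepatocytes, was counted beside Arg1. For every 100 Alb UMIs, hepatocytes of ConA+FICZ held 8.47 Arg1 UMIs, B cells 8.76, neutrophils 23.9, monocytes 7275 (4 Alb UMIs) and macrophages 8309 (22 Alb UMIs). The macrophages of ConA+FICZ held Alb at 22.1 CPM, beside Arg1 at 1835, and their ratio of Arg1 to Alb was far above that of hepatocytes. The B cell ratio was 26.4 against 18.8 in hepatocytes of Naïve, 51.3 against 2.16 in ConA+Veh and 33.3 against 14.3 in ConA+TCDD, the last from 1 Arg1 UMI in B cells. In ConA+Veh 1 B cell gave 15 of the 20 Arg1 UMIs of its class, and the hepatocyte value came from 13 Arg1 UMIs in 8 cells.

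**Figure D1:**
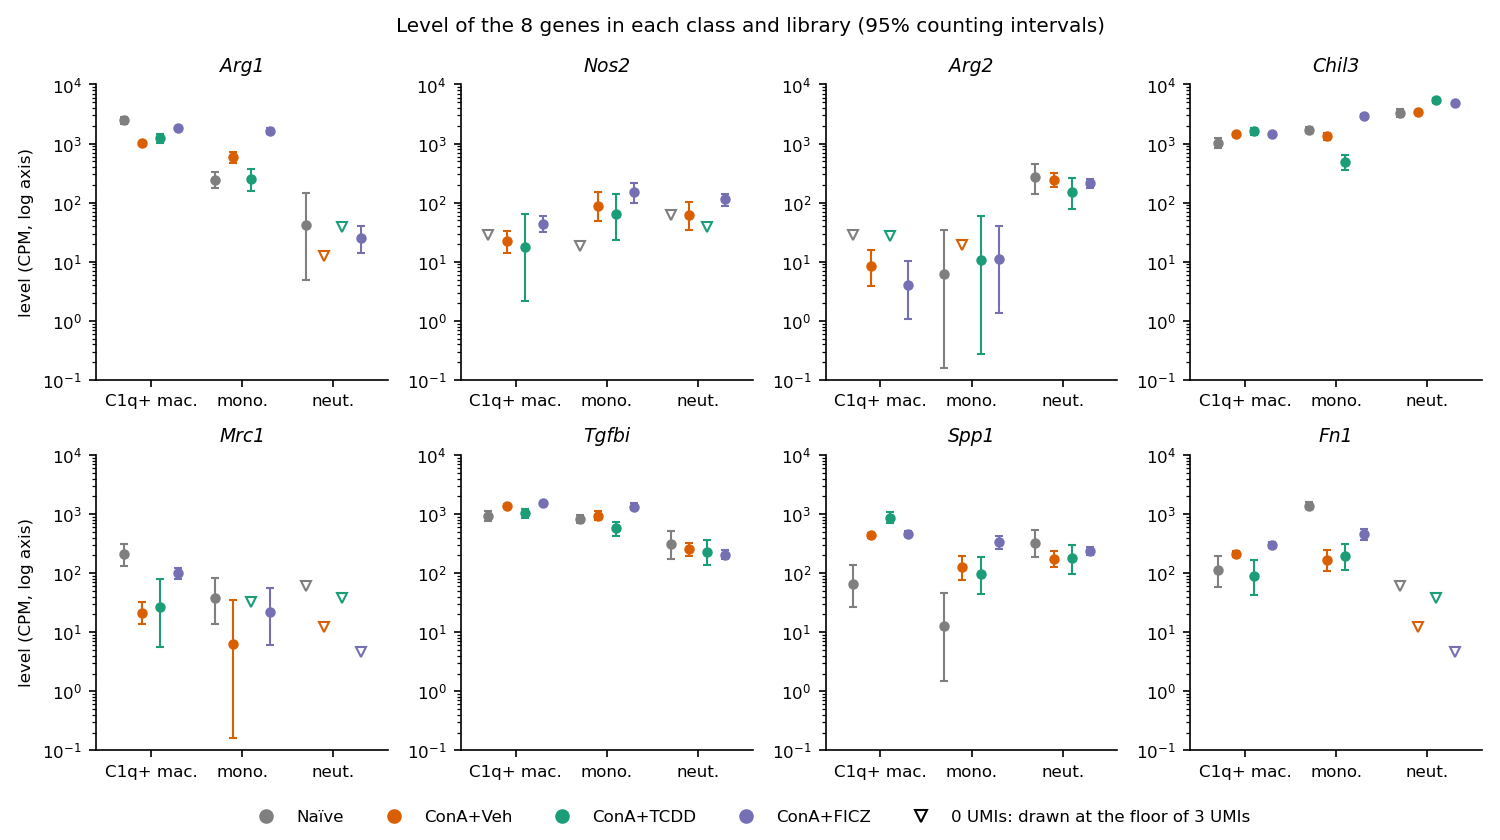
Level of each gene in CPM (log axis) in C1q-positive macrophages, monocytes and neutrophils of the 4 libraries, with 95% counting intervals; open triangles mark 0 UMIs and sit at the floor of 3 counts. Arg1 is high in macrophages and near absent in neutrophils, Arg2 is found mainly in neutrophils, and Fn1 is highest in Naïve monocytes at 1381 CPM.

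Nos2 (chromosome 11, 78920787 to 78960254, plus strand) was not seen in any of the 2086 Naïve cells, and it was present after ConA in all 3 classes at low levels. In macrophages it was at 0, 22.3, 18.1 and 44.2 CPM, from 0, 24, 2 and 44 UMIs. In monocytes it was at 0, 89.1, 64.7 and 149 CPM, from 0, 14, 6 and 27 UMIs. In neutrophils it was at 0, 62.5, 0 and 113 CPM, from 0, 15, 0 and 73 UMIs. With the floor of 3 counts in place of 0, ConA+TCDD was 1.64-fold lower than ConA+Veh. That floor in the Naïve classes corresponds to 28.2 CPM in macrophages, 18.8 in monocytes and 61.6 in neutrophils. Against it Nos2 was 4.73-fold higher in ConA+Veh than in Naïve monocytes, with the counting error of ConA+Veh left out. Those 14 UMIs lay in 3 of 28 cells, 8 of them in 1 cell, and without that cell the level was 39.8 CPM. An absence of Nos2 from the 11 Naïve macrophages could not be told from the level in ConA+Veh at this depth. The counting intervals of ConA+Veh and ConA+TCDD overlapped in macrophages (14.3 to 33.2 and 2.19 to 65.2 CPM) and in monocytes (48.7 to 150 and 23.8 to 141 CPM). They overlapped in neutrophils too (35.0 to 103 and 0 to 46.9 CPM). As a mean over cells the log2 ratio of ConA+TCDD over ConA+Veh in macrophages was -2.50, with 2 UMIs in 1 ConA+TCDD cell.

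ConA+FICZ had the highest Nos2 level in each class. The log2 ratio to ConA+Veh was 0.98 (0.23 to 1.76) in macrophages, 0.74 (-0.24 to 1.79) in monocytes and 0.86 (0.04 to 1.76) in neutrophils. The macrophage value came from few cells, since 7 of 149 macrophages held Nos2 and 1 of them gave 20 of 44 UMIs, and as a mean over cells it was -0.23. The neutrophil signal was wider, with 36 of 253 cells and at most 9 UMIs in a cell. At equal depth Nos2 was found in 3.61% of neutrophils of ConA+Veh (0.752 to 10.2%) and 8.56% of those of ConA+FICZ (5.23 to 13%), intervals that overlap. Without thinning these shares were 9.47 and 14.2%. Among B cells Nos2 was found in 1 cell of ConA+Veh, with 14 UMIs, in 1 of ConA+FICZ with 1 UMI, and in none of the other 2 libraries.

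Where Nos2 was detected in a macrophage or a monocyte, Arg1 was mostly detected in the same cell. In macrophages 9 of 12 Nos2-positive cells also held Arg1 in ConA+Veh, 1 of 1 in ConA+TCDD and 6 of 7 in ConA+FICZ, against 50, 61.9 and 66.4% of all macrophages of those libraries. In monocytes it was 3 of 3, 2 of 2 and 6 of 7, against 35.7, 30 and 50% of all monocytes. In neutrophils of ConA+FICZ it was 4 of 36, against 5.53% of all neutrophils there, and in ConA+Veh no neutrophil held Arg1. Most Arg1-positive cells held no Nos2, such as 72 of 81 macrophages in ConA+Veh and 93 of 99 in ConA+FICZ, so the overlap concerns the few Nos2-positive cells. Deeper cells are more likely to show both genes, and this was not corrected for.

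Arg2 (chromosome 12, 79130777 to 79156301, plus strand), the mitochondrial arginase, was a neutrophil gene in these libraries. It was at 267 CPM in Naïve, 246 in ConA+Veh, 153 in ConA+TCDD and 212 in ConA+FICZ neutrophils, from 13, 59, 12 and 137 UMIs. The lowest level, in ConA+TCDD, had an interval of 78.9 to 267 CPM that contained the values of ConA+Veh and ConA+FICZ and overlapped the interval of Naïve (142 to 457). In macrophages Arg2 was at 0, 8.38, 0 and 4.01 CPM, and in monocytes between 0 and 11 CPM, with at most 2 UMIs in a library. Neutrophils held 92.9, 72.8, 60 and 89.0% of all Arg2 UMIs of their libraries. Among macrophages, monocytes and neutrophils, Arg1 thus lay mainly with macrophages and monocytes and Arg2 mainly with neutrophils. Of all Arg1 UMIs of the libraries, macrophages held 57.3, 72.3, 42.95 and 53.9% and monocytes 8.53, 6.085, 7.21 and 8.57%. Hepatocytes held 17.5, 0.86, 0.627 and 17.9% of them, more than monocytes in Naïve and ConA+FICZ and less in ConA+Veh and ConA+TCDD.

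**Figure D2:**
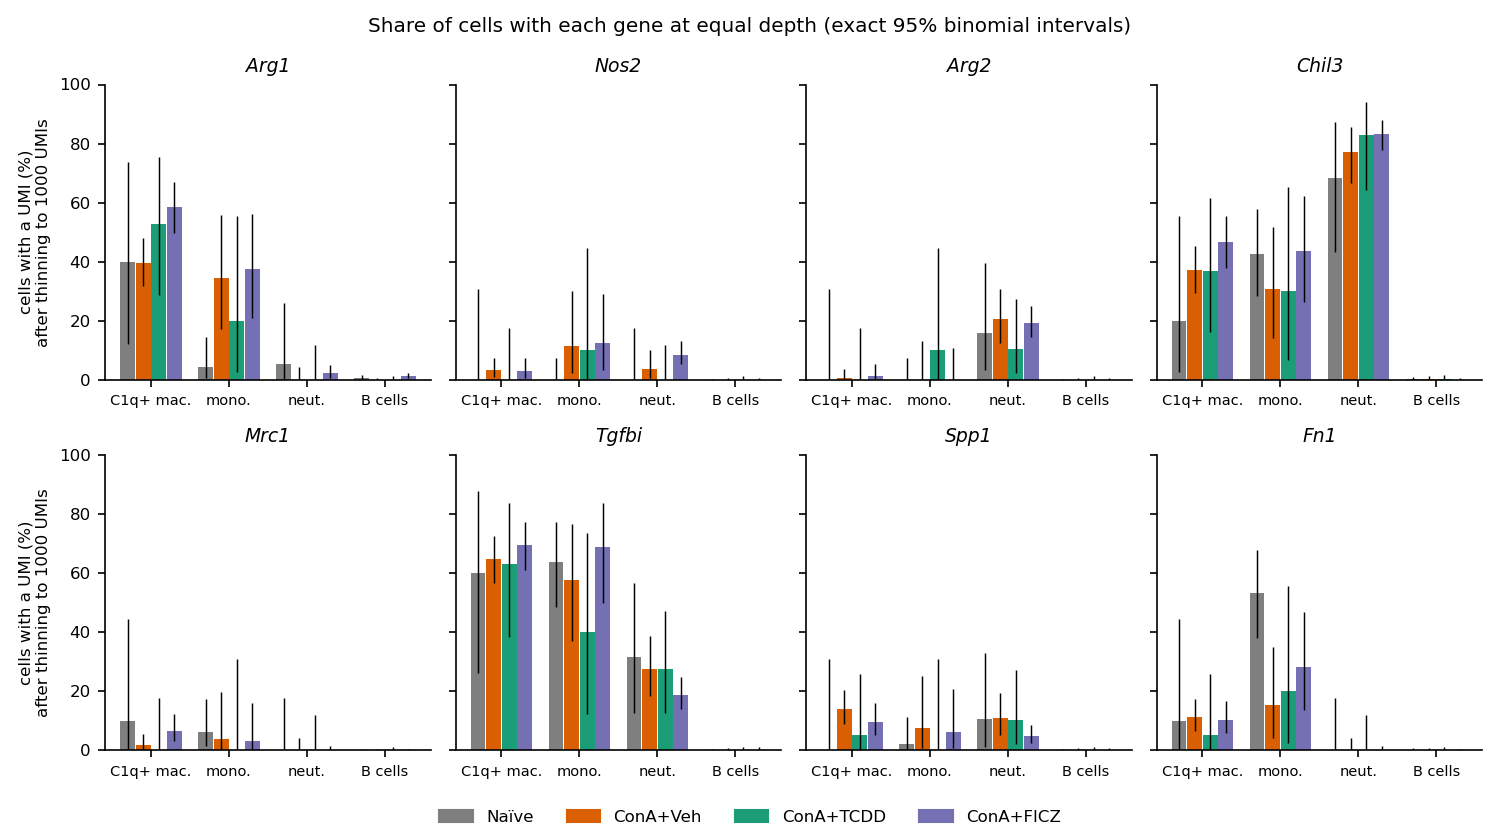
Share of cells (%) with at least 1 UMI of each gene after cells were thinned to 1000 UMIs and shallower cells left out, in 3 myeloid classes and in B cells, with exact 95% binomial intervals. Chil3 is found in 68.4 to 83.3% of neutrophils, Tgfbi in 60 to 69.6% of macrophages, and all 8 genes in at most 1.27% of B cells.

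Chil3 (chromosome 3, 106147554 to 106167564, minus strand) encodes a chitinase-like protein also called Ym1, a marker of alternative activation in macrophages and a product of neutrophils. Its level was highest in neutrophils, at 3267, 3360, 5366 and 4889 CPM. Naïve and ConA+Veh overlapped (2779 to 3816 and 3132 to 3600), and ConA+TCDD and ConA+FICZ overlapped above them (4867 to 5904 and 4720 to 5063). The log2 ratio to ConA+Veh was 0.68 (0.50 to 0.85) for ConA+TCDD and 0.54 (0.43 to 0.65) for ConA+FICZ, 2 values that share the ConA+Veh library. Without the highest cells they were 0.71 and 0.60. At equal depth Chil3 was in 68.4, 77.1, 82.8 and 83.3% of neutrophils, and these intervals all overlapped.

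In macrophages Chil3 stood at 1017, 1440, 1606 and 1447 CPM, so the 3 ConA libraries overlapped within counting error and Naïve was lower. One Naïve macrophage gave 69 of the 108 UMIs, and without it the Naïve level was 407 CPM. Monocytes held 1720, 1324, 485 and 2953 CPM, the widest range of the 3 classes. The ConA+TCDD value came from 45 UMIs in 4 of 10 cells. The log2 ratio of ConA+FICZ over ConA+Veh depended on how cells were weighted. It was 1.16 (0.92 to 1.40) from summed UMIs, 1.72 without the highest cells and -0.02 as a mean over cells. One ConA+Veh monocyte gave 92 of the 208 UMIs of its class. The highest value in a cell was 414 UMIs per 10000 in ConA+Veh and 129 in ConA+FICZ. Chil4, a near-identical neighbour of Chil3, had at most 2 UMIs in any library against 662 to 6138 of Chil3, and how reads that match both copies were counted was not tested.

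Mrc1 (chromosome 2, 14229392 to 14332057, plus strand), the mannose receptor CD206, is a surface marker of alternatively activated macrophages and of liver sinusoidal endothelial cells. In macrophages it was at 207 CPM in Naïve, 21.4 in ConA+Veh, 27.1 in ConA+TCDD and 99.4 in ConA+FICZ, from 22, 23, 3 and 99 UMIs. Naïve and ConA+FICZ were high and ConA+Veh was low, with no overlap of their intervals (130 to 314, 80.8 to 121 and 13.6 to 32.1), while ConA+TCDD, from 3 UMIs (5.58 to 79.1), lay under Naïve and ConA+FICZ and overlapped ConA+Veh. ConA+Veh over Naïve gave a log2 ratio of -3.27 (-4.18 to -2.36), and ConA+FICZ over ConA+Veh one of 2.21 (1.55 to 2.94). Without the highest cells these were -2.88 and 2.16. One Naïve macrophage gave 11 of the 22 UMIs. Without the highest cells the intervals of Naïve (65.7 to 236) and ConA+FICZ (62.7 to 99.3) overlapped, and both stayed above ConA+Veh (10.7 to 27.8). Mrc1 was found in 35 of 149 macrophages of ConA+FICZ and in 14 of 162 of ConA+Veh, or 23.5% and 8.64%. After thinning the shares were 6.67% (3.09 to 12.3%) and 1.99% (0.412 to 5.70%), close to the level of 1 UMI per cell, and their intervals overlapped. In Naïve 1 of 10 thinned macrophages held Mrc1.

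Most Mrc1 of the Naïve library lay outside the macrophages. Endothelial cells, gated on markers such as Stab2 and Kdr, held 139 of its 169 UMIs, at 914 CPM. Their level was 28.1 CPM in ConA+Veh (7 UMIs in 51 cells), 175 in ConA+TCDD (5 UMIs in 6 cells) and 43.7 in ConA+FICZ (7 UMIs in 30 cells). The 11 Naïve macrophages held none of the 6 endothelial markers. Monocytes had 0 to 6 Mrc1 UMIs per library, and neutrophils none in any library.

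**Figure D3:**
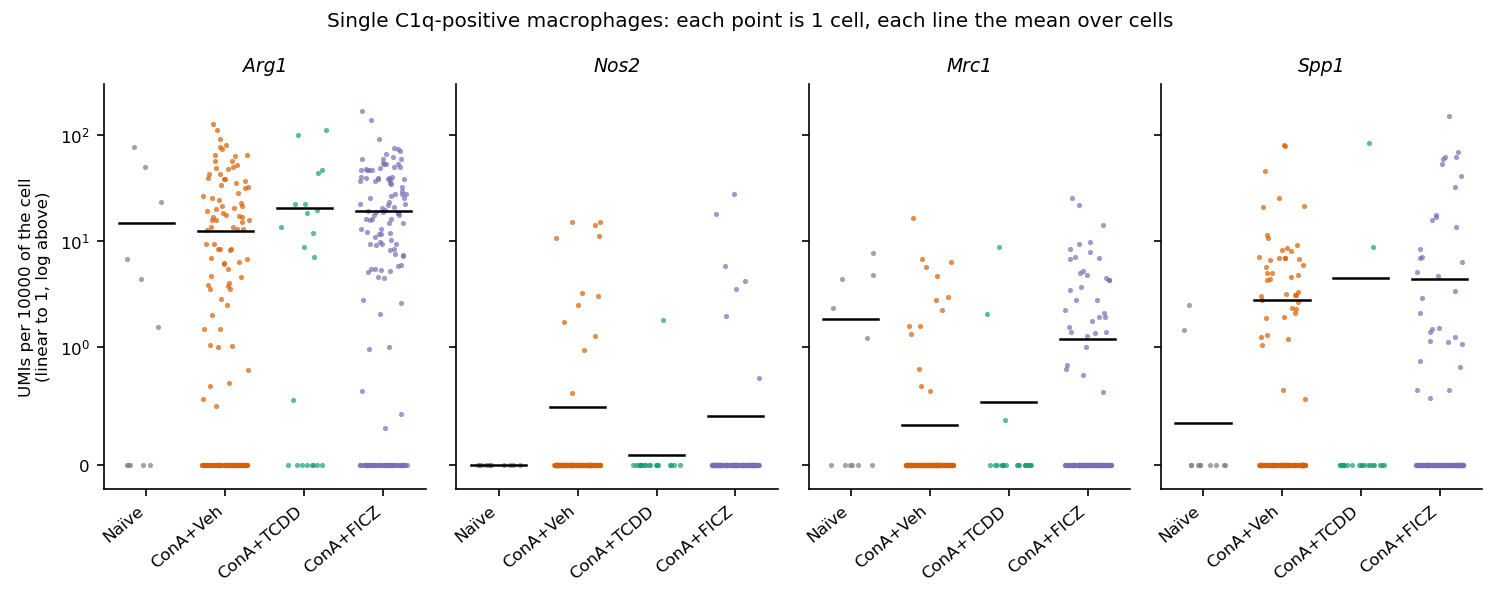
UMIs of Arg1, Nos2, Mrc1 and Spp1 per 10000 UMIs of each C1q-positive macrophage (linear up to 1 and log above), by library; points are cells and black lines the mean over cells. The 11 Naïve and 21 ConA+TCDD macrophages give few points, Nos2 is at 0 in Naïve, and 1 ConA+TCDD cell holds 96 of 97 Spp1 UMIs.

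Tgfbi, Spp1 and Fn1 encode proteins that cells secrete into the matrix around them. Tgfbi (chromosome 13, 56609523 to 56639562, plus strand), a matrix protein induced by TGF-β, was found in all 3 classes of every library. Its level was 923, 1387, 1029 and 1514 CPM in macrophages, 829, 942, 572 and 1341 CPM in monocytes and 308, 254, 229 and 205 CPM in neutrophils. In macrophages ConA+FICZ was the highest, with an interval (1439 to 1593) that overlapped that of ConA+Veh (1317 to 1459), in monocytes it was the highest without overlap (1178 to 1521 against 796 to 1107), and in neutrophils the 4 intervals overlapped. ConA+TCDD lay under ConA+Veh without overlap in macrophages (848.5 to 1236) and monocytes (428 to 748), from 114 and 53 UMIs. As means over cells these log2 ratios were -0.26 and -0.14, against -0.43 and -0.72 from summed UMIs. At equal depth Tgfbi was in 60, 64.9, 63.2 and 69.6% of macrophages.

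Spp1 (chromosome 5, 104435118 to 104441050, plus strand) encodes osteopontin, a secreted protein that binds integrins and CD44. In macrophages it was at 65.9, 436, 875 and 467 CPM, from 7, 468, 97 and 465 UMIs. The value of ConA+TCDD rested on a single cell with 96 of the 97 UMIs, and only 2 of 21 macrophages held any. Without the highest cell of each library the levels were 33.3, 351, 10.1 and 267 CPM, and the log2 ratio of ConA+TCDD over ConA+Veh turned from 1.01 (0.68 to 1.32) to -5.13. That of ConA+Veh over Naïve was 2.72 (1.67 to 4.05) with all cells and 3.40 without the highest ones. At equal depth Spp1 was in 0, 13.9, 5.26 and 9.63% of macrophages, with overlapping intervals. In neutrophils Spp1 was at 329, 175, 178 and 237 CPM, and in Naïve 14 of the 16 UMIs came from 1 cell. In monocytes it was at 12.6, 127, 97.1 and 331 CPM.

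The 3 myeloid classes held a minority of the Spp1 in every library except ConA+FICZ. Cells outside all classes that held at least 3 of the 5 bile duct markers Krt8, Krt18, Krt19, Epcam and Sox9, a split made after the values were seen, numbered 3, 12, 2 and 2. They carried 86.8, 57.6, 45.3 and 14.4% of all Spp1 UMIs. The myeloid classes together had none or near none of these markers, at 0 to 20.2 CPM summed over the list.

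Fn1 (chromosome 1, 71585520 to 71653200, minus strand) encodes fibronectin. Among the 3 classes it was highest in Naïve monocytes, at 1381 CPM (220 UMIs in 33 of 47 cells), against 166 in monocytes of ConA+Veh, 194 in ConA+TCDD and 453 in ConA+FICZ. The log2 ratio of ConA+Veh over Naïve was -3.06 (-3.71 to -2.47) from summed UMIs, -3.84 without the highest cells and -1.57 as a mean over cells. At equal depth Fn1 was in 53.2% (38.1 to 67.9%) of Naïve and 15.4% (4.36 to 34.9%) of ConA+Veh monocytes. Other monocyte genes were also far apart between these libraries. Lyz2 stood at 21150 CPM in Naïve monocytes and 2521 in ConA+Veh, and Cx3cr1 at 308 and 19.1, and their part in the Fn1 value was not tested. In macrophages Fn1 was at 113, 211, 90.2 and 305 CPM, and no Fn1 UMI was found in the 409 neutrophils of the 4 libraries. Macrophages held 32.4% of all Fn1 UMIs in ConA+Veh and 43.7% in ConA+FICZ. Hepatocytes held Fn1 too, at 1116 CPM in ConA+Veh (21 UMIs in 5 of 8 cells) and 214 in ConA+FICZ (63 UMIs). In macrophages of ConA+Veh, 27 of 44 Spp1-positive cells held Fn1, or 61.4% against 34.0% of all macrophages there. In ConA+FICZ it was 16 of 33, or 48.5% against 34.2%.

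ConA+Veh was then compared with Naïve over all genes that had at least 20 UMIs in the 2 libraries together. In macrophages 7 of the 8 genes met this, although Nos2, with 0 Naïve UMIs, had neither a ratio nor a bound, and Spp1 was at least 2-fold higher and Arg1 and Mrc1 at least 2-fold lower in ConA+Veh. Over the 5702 genes tested in this way 10.7% were higher and 9.15% lower. In monocytes 5 of the 8 met it, with Arg1 and Spp1 higher and Fn1 lower, beside 17.3% higher and 15.8% lower of 2436 genes. Spp1 met the minimum through ConA+Veh, with 7 Naïve UMIs in macrophages and 2 in monocytes, these 2 in 1 cell. Its 20 UMIs in ConA+Veh monocytes lay in 4 of 28 cells, 9 of them in 1 cell. In neutrophils 4 genes met the minimum and none passed 2-fold, beside 9.84% higher and 16.9% lower of 1483 genes. Arg1 thus differed in opposite directions in macrophages and monocytes, and without the highest cells only the monocyte value passed 2-fold, while with stricter gates it was 0.34.

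For ConA+TCDD over ConA+Veh, 7 genes could be compared in macrophages, with Spp1 higher on the strength of 1 cell and Fn1 lower (log2 ratio -1.23, -2.31 to -0.32, from 10 UMIs). The share of all 5684 genes was 6.05% higher and 11.7% lower. In monocytes 6 could be compared, and Arg1 (-1.24, -1.97 to -0.57) and Chil3 (-1.45, -1.95 to -0.98) were lower, beside 5.79% higher and 11.2% lower of 1881 genes. With stricter gates, which left 4 ConA+TCDD monocytes, Arg1 was at -0.32 and Fn1 went from 0.23 to -1.83. In neutrophils none of 4 passed 2-fold, beside 5.12% higher and 4.29% lower of 1563 genes. Only 21 macrophages and 10 monocytes stand behind the ConA+TCDD values. Of the 1880 ConA+TCDD cells 751 fell in no gated class, and the class values do not describe them. Macrophages, monocytes and neutrophils of ConA+TCDD held 42.95, 7.21 and 0% of its Arg1 UMIs, against 72.29, 6.085 and 0% in ConA+Veh. For Nos2 the shares were 9.09, 27.27 and 0%, against 30.77, 17.95 and 19.23%.

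For ConA+FICZ over ConA+Veh, 7 genes could be compared in macrophages and Mrc1 alone was past 2-fold, on the higher side, beside 4.59% higher and 2.0% lower of 7251 genes. Arg1 (1.80-fold) and Nos2 (1.98-fold) lay just under the threshold. In monocytes 6 could be compared, and Arg1, Chil3, Spp1 and Fn1 were higher, beside 8.78% higher and 4.8% lower of 2564 genes. As a mean over cells none of these 4 passed 2-fold. Without the highest cells Arg1 (1.03), Chil3 (1.72) and Fn1 (1.92) passed it and Spp1 (0.79) did not. In neutrophils none of 5 passed, beside 13.4% higher and 3.47% lower of 3310 genes.

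**Figure D4:**
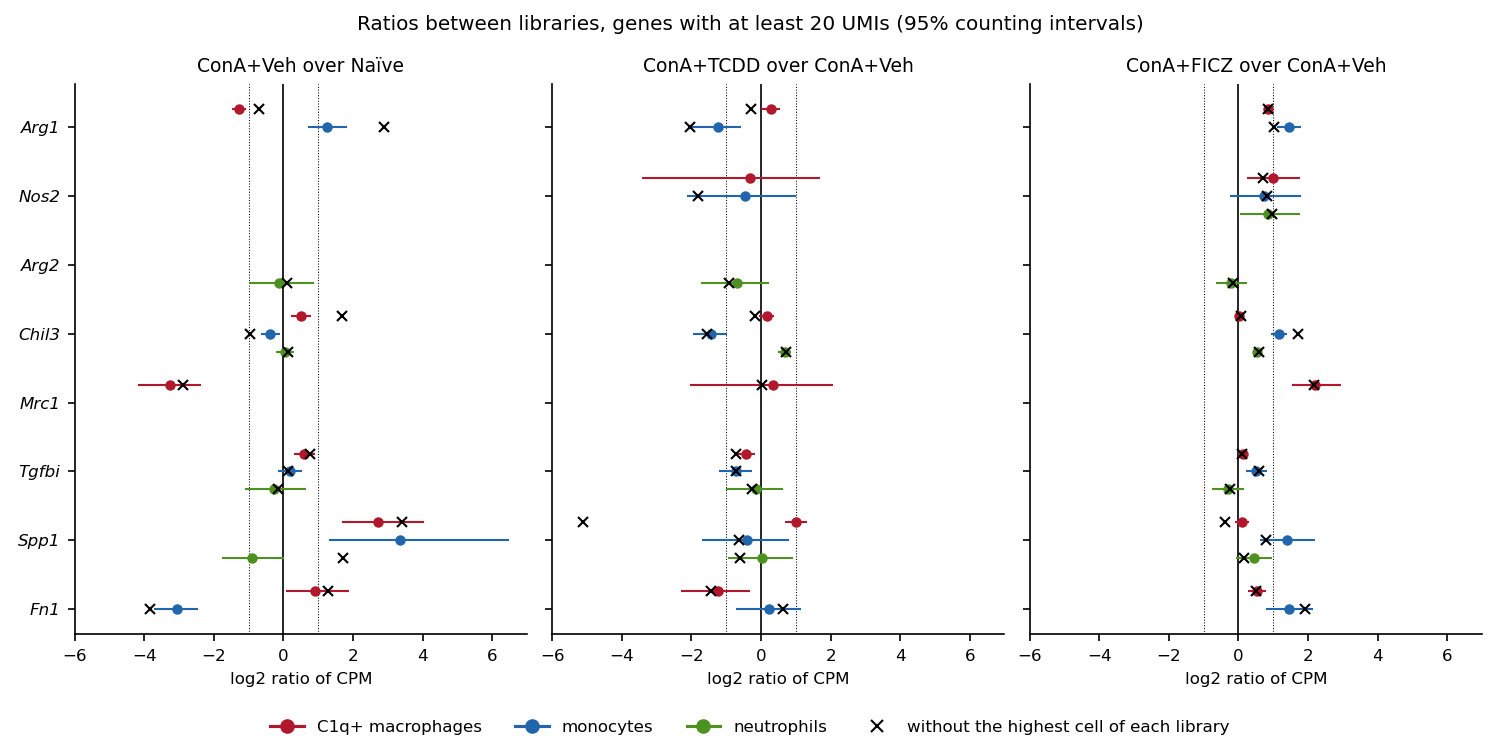
Log2 ratio of CPM for each gene with at least 20 UMIs in the 2 libraries, in 3 comparisons and 3 cell classes, with 95% counting intervals; dotted lines mark 2-fold and crosses the value without the highest cell of each library. Mrc1 in macrophages stays at 2.16 in ConA+FICZ over ConA+Veh, while Spp1 in macrophages turns to -5.13 in ConA+TCDD over ConA+Veh.

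Other genes of both activation states were read from lists, of which 20 genes each were in the files. Of the M1-type list, 14 could be compared in macrophages of ConA+Veh and Naïve, and 8 were at least 2-fold higher and 0 lower, beside 10.7% higher and 9.15% lower of all genes. The Naïve class held few UMIs, so 6 of the 8 had only 1 or 2 of them there and met the minimum through ConA+Veh, and the intervals of Cd86 (-0.36 to 7.52) and Acod1 (-0.07 to 4.90) included 0. Cxcl10, a chemokine induced by interferon-γ, was at 526 CPM in ConA+Veh and 37.7 in Naïve, and Il1b, the precursor of interleukin-1β, at 629 and 94.2 CPM. Cxcl9, of the same kind as Cxcl10, was at 101 and 9.42 CPM and the T cell attracting chemokine Ccl5 at 289 and 9.42 CPM, each from 1 UMI in Naïve. Irf1, a transcription factor of the interferon response, had a log2 ratio of 0.09 (-0.73 to 1.04). Of the M2-type list 10 could be compared, and 3 were higher and 2 lower, with a median of -0.16 against -0.04 over all genes. Cd163, a hemoglobin scavenger receptor, was at 14.9 against 254 CPM, with a log2 ratio of -4.09 (-5.08 to -3.15). Il1rn, the interleukin-1 receptor antagonist, was at 77.3 against 9.42 CPM. Ccl24, an eosinophil chemokine, was at 119 against 0 CPM, or 4.22-fold higher against the floor of 3 counts. Il1rn, Ccl24 and Retnla were the 3 higher, with 1, 0 and 0 Naïve UMIs, so they too met the minimum through ConA+Veh. One ConA+Veh cell gave 47 of the 70 Retnla UMIs.

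ConA+TCDD and ConA+FICZ were each set against ConA+Veh. In macrophages 1 M1-type gene was higher and 2 lower of 14 in ConA+TCDD, beside 6.05% higher and 11.7% lower of all genes. In ConA+FICZ 0 were higher and 2 lower of 15, beside 4.59% and 2.0%, with a median of -0.17 against 0.11 over all genes. Cxcl9 was at 442 CPM in ConA+TCDD (49 UMIs in 8 of 21 cells), 101 in ConA+Veh and 44.2 in ConA+FICZ. Ccl5 was lower in both, at 72.2 and 28.1 CPM against 289, and 94 of its 310 UMIs in ConA+Veh came from 1 cell. Ptgs2, the inducible cyclooxygenase, was at 18.1 CPM in ConA+TCDD against 137 (2 and 147 UMIs). Of the M2-type list 1 was higher and 2 lower of 9 in ConA+TCDD, and 1 higher and 3 lower of 13 in ConA+FICZ. Ccl24 was at 623 CPM in ConA+TCDD, and Clec10a, a galactose-binding lectin, at 53.2 CPM in ConA+FICZ (33 of 149 cells) against 10.2 in ConA+Veh (9 of 162 cells). Retnla was at 0 in ConA+TCDD and 6.02 CPM in ConA+FICZ against 65.2 in ConA+Veh, where 1 cell gave 47 of 70 UMIs, and Ccl22 at 0 in ConA+FICZ against 21 UMIs that all lay in 1 ConA+Veh cell.

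**Figure D5:**
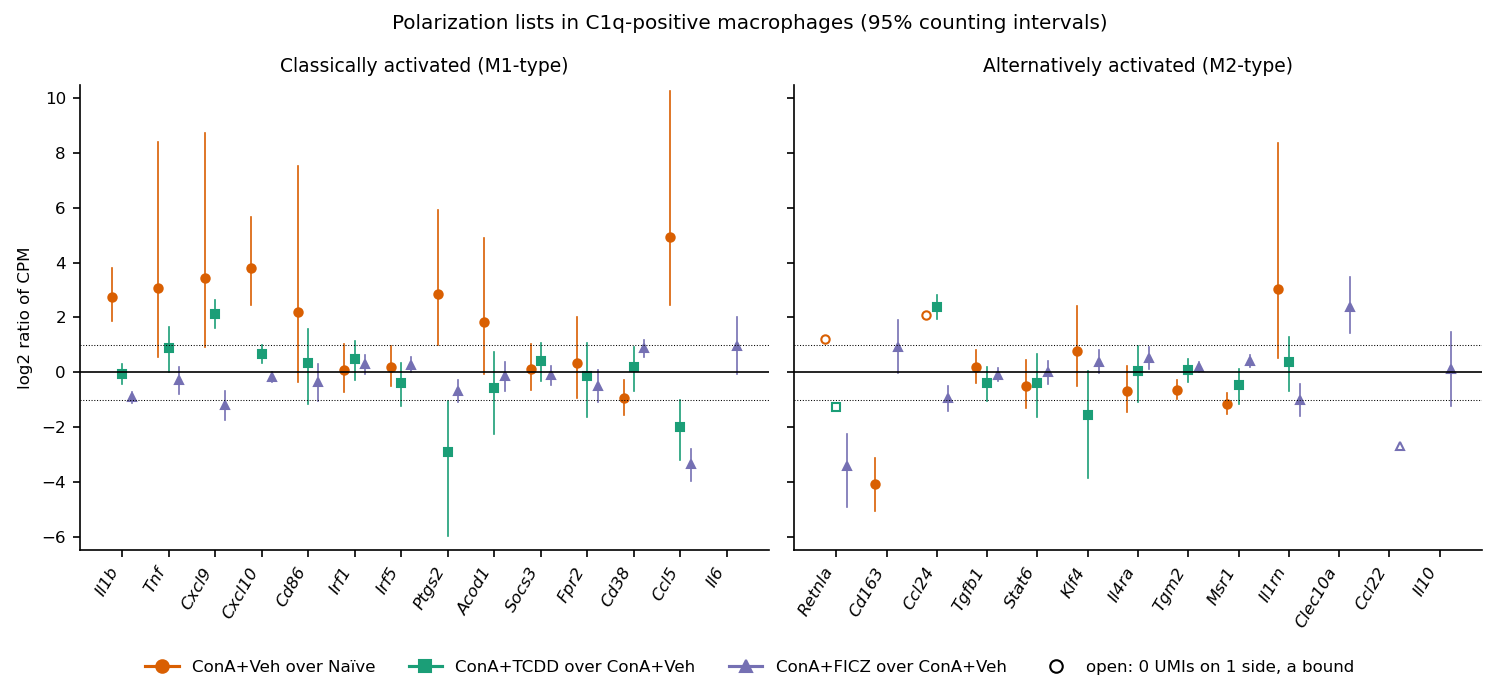
Log2 ratio of CPM in C1q-positive macrophages for M1-type and M2-type genes with at least 20 UMIs, 1 M1-type gene left out, in 3 comparisons, with 95% counting intervals; open symbols are bounds where a library had 0 UMIs. In ConA+Veh over Naïve 8 M1-type genes lie above the upper dotted line at 2-fold and none below the lower one, and Cd163 of the M2-type list is at -4.09.

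For ConA+Veh over Naïve 0 M1-type genes were higher and 3 lower of 10 in monocytes, beside 17.3% higher and 15.8% lower of all genes, with a median of -0.02 against 0.02. In neutrophils 0 were higher and 4 lower of 12, beside 9.84% higher and 16.9% lower, with a median of -0.69 against -0.23. The signalling genes Socs3 (-1.24, -2.01 to -0.51) and Tnf (-1.37, -2.76 to -0.14) were among those lower in monocytes. The M2-type genes Klf4 (-1.93, -2.83 to -1.12) and Ear2 (-2.30, -4.04 to -0.89) were lower there too, among 5 lower and 3 higher of 8. For ConA+TCDD over ConA+Veh, 2 M1-type genes were higher and 2 lower of 10 in monocytes, beside 5.79% higher and 11.2% lower of all genes, and 103 of the 118 Cxcl10 UMIs and 108 of the 116 Ccl24 UMIs of ConA+TCDD came from 1 cell each. For ConA+FICZ over ConA+Veh 2 were higher and 0 lower of 14 in both classes, beside 8.78% higher and 4.8% lower of all genes in monocytes and 13.4% and 3.47% in neutrophils. Cd38, an NAD-consuming ectoenzyme, was one of them in both, with log2 ratios of 2.85 (1.63 to 4.37) in monocytes and 1.04 (0.10 to 2.12) in neutrophils.

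Of 18 genes for arginine transport, polyamines and nitric oxide, 11 could be compared in macrophages of ConA+Veh and Naïve, with 1 higher and 0 lower, a share near the 10.7% higher and under the 9.15% lower of all genes. That gene was Ass1, which rebuilds arginine from citrulline, at 202 against 94.2 CPM (log2 ratio 1.10, 0.19 to 2.18). In monocytes Ass1 was at 185 against 31.4 CPM (2.56, 1.17 to 4.28), Gch1, which makes the cofactor of nitric oxide synthases, at 159 against 75.3, and the spermidine synthase Srm at 115 against 12.6, the 3 higher of 6. Over all genes in monocytes 17.3% were higher and 15.8% lower. Naïve monocytes held 5 Ass1 UMIs and 2 Srm UMIs, the latter in 1 cell, so both genes met the minimum mainly through ConA+Veh. No gene of this list passed 2-fold in macrophages of ConA+FICZ over ConA+Veh (13 compared), and 1 was higher and 1 lower of 12 in ConA+TCDD. The shares of all genes were 4.59% higher and 2.0% lower for ConA+FICZ and 6.05% and 11.7% for ConA+TCDD. In neutrophils none passed in any of the 3 comparisons, with 3, 3 and 5 compared. The shares of all genes there lay between 3.47 and 16.9% per direction.

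Of 20 genes listed beside the secreted matrix proteins, not all of them binding partners, 17 could be compared in macrophages of ConA+Veh and Naïve. Of these 3 were higher and 4 lower, beside 10.7% higher and 9.15% lower of all genes. Sdc4, a heparan sulfate proteoglycan, was at 217 against 65.9 CPM (1.72, 0.65 to 3.05), and the integrin gene Itga9 at 11.2 against 75.3. Itga9 had 12 and 8 UMIs, and 1 Naïve cell gave 5 of the 8. For ConA+TCDD over ConA+Veh 2 were higher and 3 lower of 16, beside 6.05% higher and 11.7% lower of all genes, with Fabp5, a fatty acid binding protein, at 560 against 218 CPM (30 of 62 UMIs in 1 cell) and Thbs1, thrombospondin 1, at 144 against 358. For ConA+FICZ over ConA+Veh 2 were higher and 1 lower of 18, beside 4.59% higher and 2.0% lower of all genes. Itgam, the integrin chain CD11b, was at 310 against 122 CPM in macrophages and 425 against 188 in neutrophils, where Thbs1 was also higher at 1753 against 725 CPM. Vcan, the matrix proteoglycan versican, was at 232 against 115 CPM in monocytes.

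Last, the genes whose pattern was most like each of the 8 were sought among 4456 genes, by Pearson correlation of log2(CPM + 10) over the 12 combinations of class and library. These points share libraries and differ mainly by class, so the values describe the pattern and carry no test. Sdc3 was the closest to Arg1 (r = 0.987) and Hdc, one of the markers that gated the neutrophils, to Arg2 (0.985). Tgfbi was followed most closely by Cuta (0.983), Fn1 by Tep1 (0.972), with Vcan (0.967) as the last of the 3 named for it, Chil3 by Stat2 (0.941), Mrc1 by Siglec1 (0.935), Spp1 by Cd274 (0.829) and Nos2 by Jak3 (0.780).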

How the data were processed

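The authors prepared libraries with the 10x Genomics 5′ assay, aligned reads to mm10 and counted UMIs with Cell Ranger 3.0.2, per the file headers and the submitters' processing notes, and deposited raw UMI counts per gene and cell without normalization. Each library's total was 5952445 (Naïve), 19252211 (ConA+Veh), 12077209 (ConA+TCDD) or 16017797 (ConA+FICZ) UMIs. With 1 library per group no test was run. The 8 genes, the gates and the lists were chosen with earlier results of these data known.

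Classes were gated on markers. Macrophages needed at least 10 C1q UMIs per 10000, monocytes 20 and neutrophils 50 marker UMIs per 10000. Cells with 3 or more B, T or NK, or endothelial markers, or 100 or more hepatocyte or erythroid UMIs per 10000, were left out. No doublet caller was run. Some genes are not reported here by name. UMIs were summed per class and divided by the class total (CPM), with exact Poisson intervals, ratio intervals from the exact binomial distribution, and Clopper-Pearson intervals for shares, in Python 3.11.15 with numpy 2.4.6 and scipy 1.17.1. A count of 0 was set to a floor of 3 counts for bounds. These bounds took the other count as it stood, without its counting error. Between 4 and 15 cell barcodes were shared by any 2 libraries. From each list, up to 3 genes with the largest log2 ratio per class and comparison, whose interval left out 0, were eligible to be named. Il1b and Irf1 in ConA+Veh over Naïve, and the cells set apart by bile duct markers, were named after their values were seen. Gene spans are from the GENCODE annotation of GRCm38, the assembly mm10 is based on. The alternatives tried were stricter and looser gates, a filter on mitochondrial share and genes per cell, means over cells, no depth correction, totals without ribosomal and mitochondrial genes, subtraction of the B cell level, other UMI minimums, a 1.5-fold threshold and other thinning depths. Leaving out the highest cell of each library was added after seeing the data.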

Additional observations from a re-analysis of the deposited data

Results flagged for a closer look

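Arg1 differed in opposite directions between cell classes under the same contrast. For ConA+Veh over Naïve its log2 ratio was -1.28 in C1q-positive macrophages and 1.26 in monocytes. With 1 library per condition the difference between the classes was not tested. Without the highest cell of each library the values were -0.69 and 2.89, with stricter gates -1.23 and 0.34, and as means over cells -0.25 and 2.30. The direction was the same under each alternative run, and the size was not. At equal depth Arg1 was in 40.0% of Naïve and 39.7% of ConA+Veh macrophages, and in 4.26 and 34.6% of monocytes. The summed monocyte markers of the monocyte class stood at 26210 CPM in Naïve and 5875 in ConA+Veh. Whether that difference has a part in the Arg1 values was not tested. The Naïve values rest on 6 of 11 macrophages and 2 of 47 monocytes with Arg1.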

How the results depend on the processing

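Of 420 alternative values of 53 log2 ratios, 353 stayed within the counting error of the reported value, 64 moved beyond it and 3, of ratios past 2-fold, turned to the other sign. The settings were unlike. Subtraction of the B cell level and totals without ribosomal and mitochondrial genes could shift ratios little, and each left all 53 within it. Stricter gates moved 14, no depth correction 15, means over cells 13 with 2 turned, and leaving out the highest cells 13 with 1 turned. In all 34 of the 420 had the other sign, the rest of them for ratios under 2-fold such as Spp1 in neutrophils for ConA+Veh over Naïve, 1.70 without the highest cells against -0.91. Without the highest cell of each library, Spp1 in macrophages for ConA+TCDD over ConA+Veh turned to -5.13, as 1 cell held 96 of 97 UMIs. As means over cells, Chil3 turned to -0.02 and Fn1 to -0.30 in monocytes for ConA+FICZ over ConA+Veh, and the cause was not tested. Without the highest cells these 2 ratios were 1.72 and 1.92.

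The number of the 8 genes past 2-fold also depended on the settings. In macrophages it went from 3 to 5 at a 1.5-fold threshold for ConA+Veh over Naïve. For ConA+TCDD over ConA+Veh it went from 2 to 1 with looser gates, as a mean over cells, and as mean UMIs per cell. For ConA+FICZ over ConA+Veh it went from 1 to 2 with stricter gates, the filter on cells, the B cell level subtracted or a minimum of 10 UMIs, and to 3 at 1.5-fold. In monocytes it went from 3 to 1 with stricter gates for ConA+Veh over Naïve, from 2 to 1 as a mean over cells and to 0 as mean UMIs per cell for ConA+TCDD over ConA+Veh, and from 4 to 0 as a mean over cells for ConA+FICZ over ConA+Veh. In neutrophils it went from 0 to 1 with stricter gates, at 1.5-fold and without the highest cells for ConA+Veh over Naïve, to 2 at 1.5-fold for ConA+TCDD over ConA+Veh, and to 1 as a mean over cells and at 1.5-fold for ConA+FICZ over ConA+Veh. An equal number did not always name the same genes: 2 were past 2-fold in monocytes for ConA+TCDD over ConA+Veh also with stricter gates and with the filter on cells, but Fn1 stood in place of Arg1 on the lower side with the former and in place of Chil3 on the higher side with the latter. The number and the genes also changed in other settings. Without the highest cells, in macrophages for ConA+Veh over Naïve, Arg1 fell under 2-fold (-0.69) and Chil3 (1.69) and Fn1 (1.27) passed it. In monocytes for ConA+FICZ over ConA+Veh, Spp1 then fell under it (0.79), as did Chil3 (0.75) with stricter gates. As a mean over cells, in macrophages for ConA+TCDD over ConA+Veh, Spp1 (0.68) and Fn1 (-0.88) fell under it and Nos2 (-2.50) passed. The 11 Naïve macrophages and 10 ConA+TCDD monocytes set the precision. No paired analysis was possible because each group had 1 library.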

Other observations

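Some of the 8 genes were also present in granulocyte progenitors, gated on at least 2 of Mpo, Elane, Prtn3 and Ctsg. In 40, 35 and 20 such cells of ConA+Veh, ConA+TCDD and ConA+FICZ, Chil3 was at 522, 953 and 413 CPM, from 8, 8 and 5 cells, and in ConA+TCDD they supplied 32.2% of all Chil3 UMIs of the library. Tgfbi stood at 238, 241 and 374 CPM and Fn1 at 145, 82.8 and 95.1 CPM in these cells, while Arg1 had 0, 1 and 0 UMIs and Nos2 had none. The 3 progenitors of Naïve held no Chil3. One ConA+TCDD progenitor gave 304 of the 645 Chil3 UMIs of that class, and 1 ConA+Veh progenitor gave 151 of 417.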
